A study of Mus musculus with 6 samples.

Results

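The EGF receptor family and its ligands were followed as 9 genes of the deposited expression table, picked by symbol from the 23224 genes listed. They are the ligand genes Areg, Ereg, Hbegf, Tgfa, Btc and Epgn and the receptor genes Egfr, Erbb2 and Erbb3. All 9 were found, and 8 of them passed the low-count filter, since Ereg had too few reads. RNA was sequenced from mouse AKP organoids that had been derived from tumours grown in vivo, in 3 libraries labelled SOX17KO and 3 labelled Control. SOX17, an endoderm transcription factor, was the target of CRISPR-Cas9 deletion in the first group, in a study of its role in colon cancer. AKP is the field's usual short name for a kind of mouse intestinal tumour organoid with engineered mutations, a background that both groups share, and the labels list no alleles, no guide and no description of the control. The sources used here do not give whether a library came from a clone or a pool, whether each had its own culture, or whether the medium held EGF. The p-values therefore measure the spread between these libraries.

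EGF family ligands are made as membrane-bound precursors, cut free by metalloproteases such as ADAM17 and ADAM10, and bind receptor tyrosine kinases that then pair and signal through RAS to ERK and through PI3K to AKT. Amphiregulin (Areg), TGF-alpha (Tgfa) and epigen (Epgn) bind EGFR, while HB-EGF (Hbegf), betacellulin (Btc) and epiregulin (Ereg) bind EGFR and ERBB4. ERBB2 has no known soluble ligand and acts as a partner, and ERBB3 has a weak kinase, binds neuregulins and couples to PI3K. In the intestine the pathway supports proliferation in the crypt.

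Totals ran from 18290912 to 24765258 expected counts in SOX17KO libraries and from 21238718 to 27503254 in Control libraries. Sox17 itself was at 33.8, 41.9 and 45.1 CPM (counts per library scaled to a common total, with TMM factors between libraries) in the libraries labelled SOX17KO and at 34.4, 34.5 and 34.2 CPM in Control libraries. Its RNA was thus no check on the labels, and SOX17KO is used here as the name of a label. The epithelial markers Epcam, Cdh1, Krt8, Krt18, Krt19, Cldn4, Vil1, Cdx1 and Cdx2 summed to 9737 CPM in SOX17KO replicate 1, 13911 CPM in each of the other two, and between 13297 and 14084 CPM in Control libraries, and Cdx1 alone was too low to test. Within this list Epcam was higher, at 678, 675 and 675 CPM in SOX17KO libraries against 542, 532 and 524 CPM in Control libraries (edgeR adjusted p = 0.0343), and Cldn4 was 2.14-fold lower (edgeR adjusted p = 0.00224). Of 8 fibroblast markers, Col3a1, Dcn, Lum and Thy1 were at 0 in every library and the list summed to at most 0.42 CPM. Of 7 immune markers Cd3e was at 0, and the list summed to between 5.23 and 14.0 CPM in SOX17KO and between 8.56 and 11.0 CPM in Control libraries. The 6 endothelial markers summed to at most 2.79 CPM, with Emcn at 0. SOX17KO replicate 1 stood apart, with Pearson correlations of log2 CPM across genes of 0.960 and 0.963 to SOX17KO replicates 2 and 3, against 0.986 between those and at least 0.994 among Control libraries. The fold changes of the 8 tested family genes and the counts of called genes in each pathway list are given with and without it.

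Epgn, Ereg, Areg and Btc lie close together on chromosome 5. The stretches before the RefSeq starts of Epgn, Areg and Btc are shown because Epgn was the gene that fell, while the nearby Areg and Btc did not pass the test. They are the 250 bases before the annotated start on GRCm38.p6, 5′ to 3′ on the gene's strand, at chr5:91027267-91027516 (plus) for Epgn, chr5:91139349-91139598 (plus) for Areg and chr5:91402995-91403244 (minus) for Btc. Capitals mark matches, on either strand, to 5 motifs chosen with these data known: ACAAT (the core bound by SOX factors), TGANTCA (AP-1), TGACGTCA (the cyclic AMP response element), TATAAA (the TATA box) and GGGCGG (the GC box).
Epgn: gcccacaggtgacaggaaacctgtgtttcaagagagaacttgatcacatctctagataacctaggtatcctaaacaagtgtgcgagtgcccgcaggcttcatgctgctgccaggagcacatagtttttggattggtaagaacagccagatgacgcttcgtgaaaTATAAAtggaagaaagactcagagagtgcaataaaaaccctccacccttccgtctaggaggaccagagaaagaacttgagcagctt
Areg: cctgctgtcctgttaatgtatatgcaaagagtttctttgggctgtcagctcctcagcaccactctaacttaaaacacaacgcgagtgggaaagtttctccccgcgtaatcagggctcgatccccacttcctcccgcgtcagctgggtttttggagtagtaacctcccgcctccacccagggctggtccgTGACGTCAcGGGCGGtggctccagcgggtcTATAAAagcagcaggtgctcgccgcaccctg
Btc: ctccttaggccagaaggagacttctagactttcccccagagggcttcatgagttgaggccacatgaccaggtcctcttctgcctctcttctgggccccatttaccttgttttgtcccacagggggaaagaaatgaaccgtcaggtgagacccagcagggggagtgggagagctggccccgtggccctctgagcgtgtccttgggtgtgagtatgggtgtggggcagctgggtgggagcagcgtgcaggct
Areg held a cyclic AMP response element starting 61 bases before the start, a GC box at 52 bases and a TATA box at 31 bases. The stretch before Epgn held TATAAA at 86 bases and no other match, and that before Btc held none. Among 32851 RefSeq promoter stretches of this length, 1.55% held TGACGTCA, 12.4% TATAAA, 32.7% GGGCGG, 6.75% TGANTCA and 27.7% ACAAT. Letters alone say nothing of binding. Sequences are from RefSeq.

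Epgn was the 1 of 8 tested genes that changed. Its level was 2.56, 2.94 and 2.72 CPM in the SOX17KO libraries (replicates 1, 2 and 3, in this order throughout), against 6.77, 7.75 and 6.73 CPM in Control replicates 1, 2 and 3. All SOX17KO libraries were low and the groups did not overlap, as was also so for Tgfa and Erbb2, 3 of 8 against 28.2% of all tested genes. The mean was 2.74 ± 0.193 CPM in SOX17KO and 7.08 ± 0.577 CPM in Control libraries (SD, n = 3 each), 2.58-fold lower. The log2 fold change was -1.37 ± 0.16 (SE, 95% interval -1.75 to -0.99; edgeR quasi-likelihood test, Benjamini-Hochberg adjusted p = 0.00479). It rested on 49 to 67 reads per SOX17KO library and 162 to 187 per Control library. Without SOX17KO replicate 1 it was -1.32 (edgeR adjusted p = 0.000386), and Epgn was called in each of the 14 alternative settings, with adjusted p between 3.57e-08 and 0.0451. Over all genes 3.2% were called lower and 3.67% higher, 6.87% in all, and 1 call among 8 shows nothing particular to the family. In bulk samples, fewer cells that make a transcript and less of it per cell cannot be told apart.

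**Figure D1:**
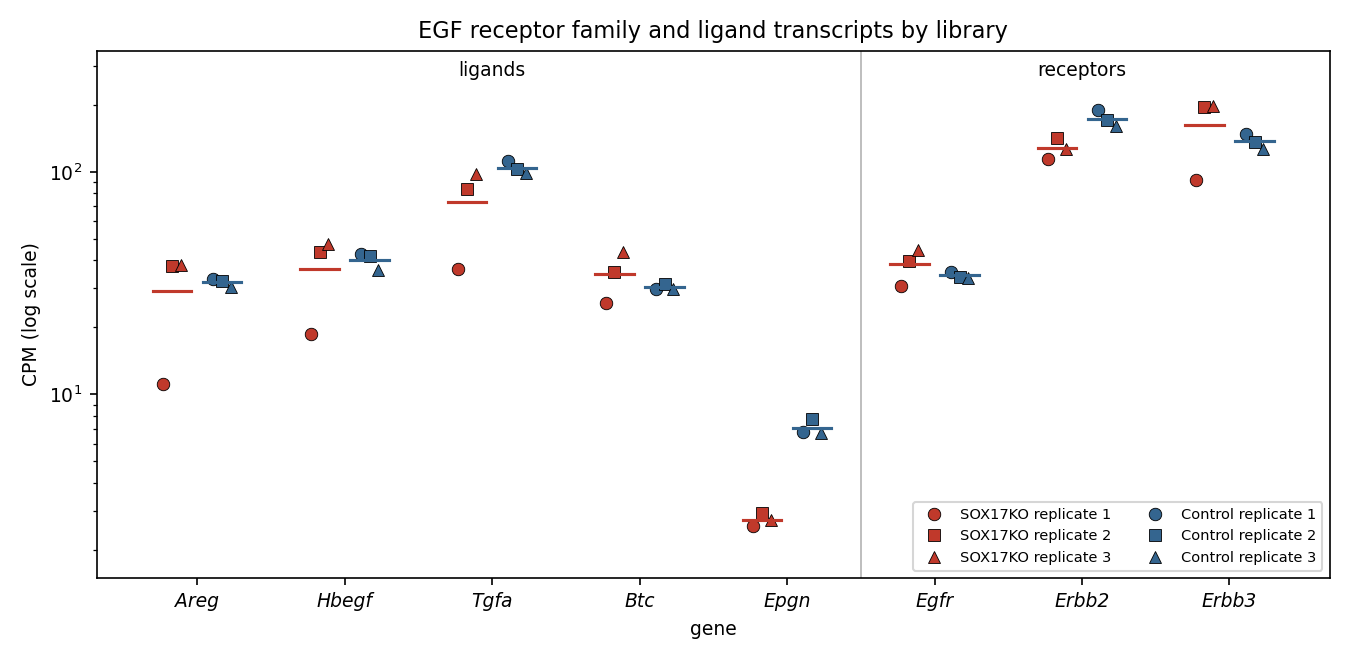
CPM (log scale) of the 8 tested genes in each SOX17KO library (red, left) and each Control library (blue, right), with horizontal lines at group means and marker shapes for replicates 1, 2 and 3. Epgn is separated between groups, at 2.56 to 2.94 and 6.73 to 7.75 CPM, and SOX17KO replicate 1 is the lowest library for every gene shown.

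The EGFR ligand gene Areg was at 11.1, 37.8 and 38.1 CPM in SOX17KO libraries, against 33.1, 32.2 and 30.5 CPM in Control libraries. Its SOX17KO libraries lay on both sides of the Control range, 1 far below and the other two above. The log2 fold change was -0.14 ± 0.41 (edgeR adjusted p = 0.908), with a 95% interval from -1.11 to 0.83. Without SOX17KO replicate 1 the direction turned, to 0.25 ± 0.08, at the edge of the threshold (edgeR adjusted p = 0.0499).

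Hbegf, whose product binds heparan sulfate, had the same arrangement, at 18.8, 43.8 and 47.6 CPM in SOX17KO libraries and 42.9, 42.0 and 36.1 CPM in Control libraries. Replicate 1 was low and replicates 2 and 3 lay above every Control library. Its log2 fold change of -0.14 ± 0.32 did not pass (edgeR adjusted p = 0.877), and without SOX17KO replicate 1 it was 0.18 (edgeR adjusted p = 0.215).

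Tgfa was at 36.5, 84.1 and 98.0 CPM in SOX17KO libraries, against 111, 103 and 98.5 CPM in Control libraries. Every SOX17KO library was below every Control library, by a wide margin in replicate 1 and a narrow one in replicate 3. The log2 fold change was -0.52 ± 0.32 with all libraries (edgeR adjusted p = 0.452) and -0.20 ± 0.09 without SOX17KO replicate 1 (edgeR adjusted p = 0.141).

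Btc was at 25.8, 35.3 and 43.6 CPM in SOX17KO libraries and at 29.9, 31.3 and 29.8 CPM in Control libraries. Replicate 1 was again the lowest and replicates 2 and 3 the highest of the 6. With all libraries the log2 fold change was 0.20 ± 0.18 (edgeR adjusted p = 0.629), and without SOX17KO replicate 1 it passed, at 0.38 ± 0.10 (edgeR adjusted p = 0.0227).

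For Ereg, whose product epiregulin is a further EGFR ligand, the SOX17KO libraries held 2 reads in all and the Control libraries 0. A count of 0 allows up to 3 reads, which is 0.109 to 0.143 CPM in a Control library. No fold can be given with both groups at or under that limit.

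Of the receptor genes, Erbb2 came nearest to a call. It was at 115, 141 and 127 CPM in SOX17KO libraries, against 189.6, 171 and 160.2 CPM in Control libraries, with no overlap. The means were 127 ± 13.4 CPM in SOX17KO and 174 ± 14.8 CPM in Control libraries (SD, n = 3 each). The log2 fold change of -0.45 ± 0.11 (95% interval -0.70 to -0.19) missed the threshold narrowly (edgeR adjusted p = 0.0554). It passed, in the same direction, without SOX17KO replicate 1 at -0.38 (edgeR adjusted p = 0.0132), without SOX17KO replicate 2 at -0.53 (edgeR adjusted p = 0.0469), by DESeq2 (adjusted p = 0.00541), with library totals only (edgeR adjusted p = 0.0462) and with no low-count filter (edgeR adjusted p = 0.0447). Of all genes, 10.7% were called by DESeq2, 6.48% with library totals only and 5.19% with no low-count filter. In the other 9 of its 14 alternatives it did not pass, among them limma-voom (adjusted p = 0.0601), the replicate block and leaving out any one Control library. Over the 14 the adjusted p ran from 0.00541 to 0.215, the highest without Control replicate 1.

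Erbb3 was at 91.6, 196 and 197 CPM in SOX17KO libraries, against 149, 136 and 126 CPM in Control libraries. The SOX17KO libraries again lay on both sides of the Control range. With all libraries the log2 fold change was 0.24 ± 0.28 (95% interval -0.41 to 0.89; edgeR adjusted p = 0.728). Without SOX17KO replicate 1 it was 0.52 ± 0.08 and was called (edgeR adjusted p = 0.00119).

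Egfr, the receptor that all 6 ligands bind, was at 30.8, 39.6 and 44.8 CPM in SOX17KO libraries and at 35.6, 33.9 and 33.2 CPM in Control libraries. Its log2 fold change was 0.16 ± 0.14 with all libraries (edgeR adjusted p = 0.614) and 0.30 ± 0.09 without SOX17KO replicate 1 (edgeR adjusted p = 0.0316).

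**Figure D2:**
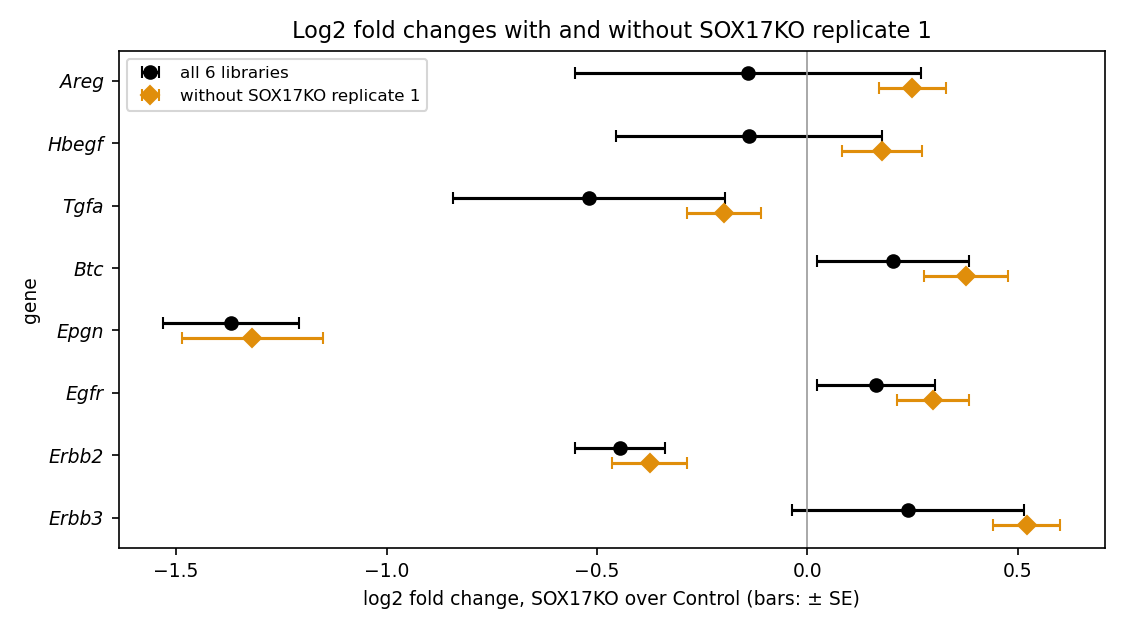
Log2 fold change, SOX17KO over Control, of each tested gene with its standard error, from all 6 libraries (black circles) and without SOX17KO replicate 1 (orange diamonds). Epgn (-1.37 and -1.32), Tgfa (-0.52 and -0.20) and Erbb2 (-0.45 and -0.38) stay below 0, while Areg and Hbegf cross 0.

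With SOX17KO replicate 1 left out, 6 of the 8 genes were called: Areg, Btc, Egfr and Erbb3 higher and Epgn and Erbb2 lower. In that comparison of 2 against 3 libraries 22.2% of all tested genes were called, 11.9% higher and 10.3% lower. No other single library had this effect, since 2 of the 8 were called without SOX17KO replicate 2 (all genes 6.16%) and 1 without each of the other 4 libraries (all genes 5.49% without SOX17KO replicate 3, and 1.6%, 1.56% and 1.64% without Control replicates 1, 2 and 3). SOX17KO replicate 1 was the lowest of the 6 libraries for all 8 tested genes, as it was for 30.8% of all tested genes. It was below 50% of the mean of SOX17KO replicates 2 and 3 for Areg, Hbegf, Tgfa and Erbb3, 4 of the 8, against 6.49% of all tested genes. Its ratio to that mean was 0.293 for Areg, 0.401 for Tgfa, 0.411 for Hbegf and 0.466 for Erbb3, and 0.855 for Erbb2 and 0.904 for Epgn. The summed epithelial markers were also lowest in this library, as given above. Krt8, Krt18 and Krt19 made up most of that sum, with Krt8 at 2923 CPM in replicate 1 and at least 3888 CPM in the other 5 libraries. Epcam and Cdh1 were not low there, since replicate 1 lay above every Control library for both. The part of these markers in the values of the family genes was not tested.

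Levels of different genes were compared per kilobase of exon, with exon lengths from GENCODE M21 on GRCm38, which may differ from the transcripts the authors counted. In SOX17KO libraries the order of mean level began with Erbb3 at 26.9 ± 10.1, Erbb2 at 25.4 ± 2.67, Areg at 23.9 ± 12.8, Tgfa at 16.1 ± 7.13, Hbegf at 15.5 ± 6.59 and Btc at 12.2 ± 3.09 CPM per kilobase (SD, n = 3), and no neighbours among these 6 differed beyond their spread. Below them, Egfr at 3.50 ± 0.647 CPM per kilobase stood above Epgn at 1.52 ± 0.107 CPM per kilobase. In Control libraries the order was Erbb2 at 34.6 ± 2.96, Areg at 26.3 ± 1.09, Tgfa at 23.0 ± 1.44, Erbb3 at 22.8 ± 1.86, Hbegf at 16.99 ± 1.56, Btc at 10.5 ± 0.294, Epgn at 3.92 ± 0.319 and Egfr at 3.13 ± 0.113 CPM per kilobase (SD, n = 3). Of neighbours in this order, Tgfa and Erbb3 differed by less than their spread.

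The summed ligand level was 35.55, 82.1 and 89.8 CPM per kilobase in SOX17KO libraries, against 84.0, 82.1 and 76.1 CPM per kilobase in Control replicates 1, 2 and 3. Replicate 1 alone lay outside the range of the others by a wide margin. Tgfa made up 22.7%, 22.6% and 24.1% of the ligand level in SOX17KO libraries and 29.3%, 27.7% and 28.6% in Control libraries, a share that was lower in all 3 SOX17KO libraries, including those whose sum was like that of Control. The Btc share was higher in all 3, at 25.3%, 14.98% and 16.9%, against 12.4%, 13.2% and 13.6% in Control libraries. A share also moves with the other ligands. In SOX17KO replicate 1 Btc itself was the lowest of the 6 libraries, at 25.8 CPM. The ratio of Tgfa to Areg level was 0.879, 0.597 and 0.690 in SOX17KO libraries, against 0.904, 0.856 and 0.868 in Control libraries. By that ratio replicate 1 lay within the Control range. Epgn was the smallest of the 5 detected ligand shares, at 3.98%, 1.98% and 1.67% in SOX17KO libraries and 4.46%, 5.22% and 4.90% in Control libraries. The ratio of Erbb2 to Erbb3 level was nearly constant in Control libraries, at 1.53, 1.51 and 1.52. It was 1.501 in SOX17KO replicate 1, near the Control libraries, and 0.865 and 0.770 in SOX17KO replicates 2 and 3. These shares and ratios are descriptions, and 3 against 3 libraries could not reach a two-sided p below 0.10 in an exact permutation test.

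**Figure D3:**
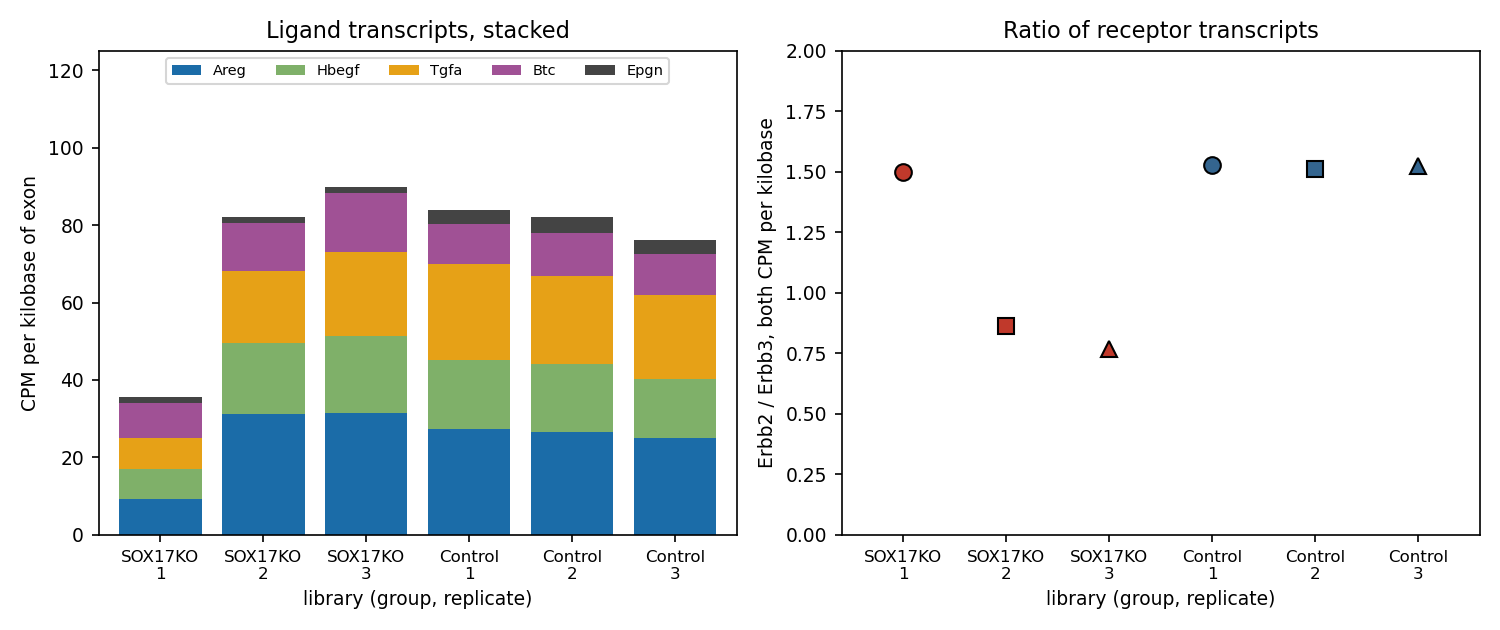
Left, ligand levels in CPM per kilobase of exon stacked by library, with sums of 35.55, 82.1 and 89.8 in SOX17KO and 76.1 to 84.0 in Control libraries (Ereg is too low to show). Right, the ratio of Erbb2 to Erbb3 in each library, at 1.501 in SOX17KO replicate 1, 0.865 and 0.770 in the other two, and 1.51 to 1.53 in Control libraries.

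Stretches of neighbouring genes shift together in these libraries, so each gene was set beside the 10 tested genes on either side of it. Around Epgn the 20 neighbours had a median log2 fold change of -0.087, between -0.81 and 3.24, with 1 called higher and 2 lower. Epgn was lower than every one of them. The windows of Areg and Btc are nearly the same and had the same median of -0.087. Around Tgfa, on chromosome 6, the median was -0.30 and 17 of 20 neighbours were negative, though none was called. By library the Tgfa neighbours differed from the Control mean by a median of -0.34, -0.25 and -0.26 in SOX17KO replicates 1, 2 and 3. Tgfa itself, at -0.52 with all libraries, lay below the lower quartile of its neighbours (-0.42). Its -0.20 without SOX17KO replicate 1 comes from a fit and is not the same measure as the medians by library. By library Tgfa was at 36.5, 84.1 and 98.0 CPM, against a Control mean of 104 CPM. It was thus far lower in replicate 1 than in replicates 2 and 3, while the neighbour medians were closer together. Whether Tgfa shared a shift with its neighbours was not tested. Around Erbb2, on chromosome 11, the median was -0.033 with 1 of 20 called lower. Around Egfr, Erbb3 and Hbegf it was 0.054, 0.055 and 0.069. Near Hbegf 4 of 20 neighbours were called higher and 0 lower, and near Egfr and Erbb3 0 were called. Over all tested genes 3.67% were called higher and 3.2% lower.

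**Figure D4:**
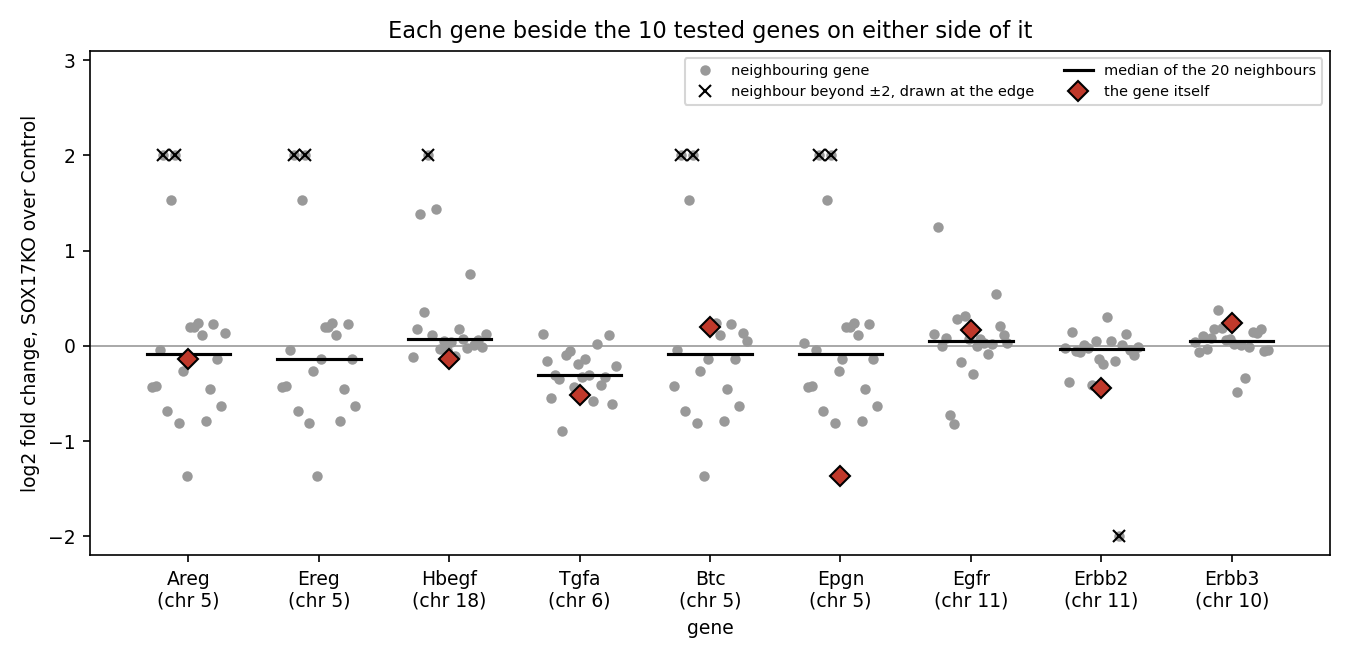
Log2 fold change, SOX17KO over Control, of each gene (red diamond) beside its 20 tested neighbours (grey) and their median (black line), with neighbours beyond ±2 drawn as crosses at the edge; Ereg has no fold of its own. Epgn lies below all of its neighbours, and Tgfa lies among neighbours with a median of -0.30.

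Among genes with a mean of at least 5 CPM, those most like Epgn over the 6 libraries were Atp8b2, a phospholipid-transporting ATPase gene, Gnb2, a G protein beta subunit gene, and Lrch4, by the root mean square difference between log2 CPM profiles, each centred on its own mean. The differences were 0.084, 0.093 and 0.10 on the log2 scale. Atp8b2 was at 11.8, 12.4 and 11.5 CPM in SOX17KO libraries, against 29.3, 29.2 and 27.01 CPM in Control libraries. Gnb2 and Lrch4 lie on chromosome 5, as Epgn does, but not among its neighbours.

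Other receptor and ligand genes were scarcely detected. The neuregulin genes Nrg1, Nrg2 and Nrg3 and the receptor gene Erbb4 had 0 reads in every library, which allows up to 3 reads or 0.109 to 0.166 CPM in a library. Egf had at most 10 and Nrg4, a further neuregulin gene, at most 17.2 expected counts in any library.

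Further along the pathway, 95 of 103 listed genes were tested, and 5 rose and none fell, 5.26% against 6.87% of all tested genes. The median log2 fold change was 0.039 for these genes and 0.014 for all tested genes. Genes for ligand shedding and trafficking gave 0 calls among 12 with edgeR, with DESeq2 and with limma-voom. In the edgeR fit 2 had an unadjusted p below 0.05. Without SOX17KO replicate 1, 1 gene was called higher, against 11.9% of all tested genes. Those with an unadjusted p below 0.05 were the iRhom genes Rhbdf1 and Rhbdf2, whose products carry ADAM17 to the cell surface. Rhbdf1 was at 56.0, 65.8 and 62.7 CPM in SOX17KO libraries, against 76.2, 70.5 and 70.5 CPM in Control libraries, with log2 fold change -0.24 (edgeR adjusted p = 0.187). For Rhbdf2 it was -0.21 (edgeR adjusted p = 0.197). The protease genes themselves did not pass, with Adam17 at 0.049 and Adam10 at 0.0095 in log2 fold change (edgeR adjusted p = 0.797 and 0.985).

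Among 22 genes of receptor inhibition and turnover 1 rose and none fell, against 3 higher by DESeq2 and 5 higher without SOX17KO replicate 1. Of all tested genes, 6.87% were called in the main fit and 10.7% by DESeq2. Without SOX17KO replicate 1 it was 22.2%, with 11.9% higher and 10.3% lower. Lrig3, of the LRIG family of membrane proteins that act on receptor tyrosine kinases, was at 42.9, 47.9 and 58.9 CPM in SOX17KO libraries, against 22.0, 19.3 and 19.7 CPM in Control libraries. Every SOX17KO library was at least 1.95 times the highest Control library. Its log2 fold change was 1.29 ± 0.14 (edgeR adjusted p = 0.00297), its 20 neighbours had a median of 0.061, and it was called in each of the 14 alternatives. Its relative Lrig1, which marks intestinal stem cells and dampens ERBB signalling, was named after its values were seen. Lrig1 was at 337, 227 and 247 CPM in SOX17KO libraries and 193, 176 and 161 CPM in Control libraries, a log2 fold change of 0.61 ± 0.16 that did not pass (edgeR adjusted p = 0.0718).

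Of 17 receptor adaptor genes 1 rose and none fell. By DESeq2 2 were higher and 1 lower, and 3 were higher and 1 lower without SOX17KO replicate 1. For this list and the next, the share of all tested genes called was 6.87% in the main fit, 10.7% by DESeq2 and 22.2% without SOX17KO replicate 1. Gab2, a docking protein that recruits PI3K and SHP2, was at 14.3, 9.88 and 14.97 CPM in SOX17KO libraries, against 7.17, 6.08 and 6.66 CPM in Control libraries, and its log2 fold change was 0.97 (edgeR adjusted p = 0.0262). In the RAS to ERK cascade 1 of 13 genes rose and none fell. Without SOX17KO replicate 1 it was 3 higher and 1 lower, and by DESeq2 2 higher. It was 0 with limma-voom, and 0 when 1 CPM in 3 libraries was required, which left Ksr1 untested. Over all tested genes limma-voom called 758 of 12137, and 815 of 11418 were called with that requirement. Ksr1, a scaffold protein of the cascade, was low throughout, at 4.24, 0.790 and 2.94 CPM in SOX17KO libraries, against 0.398, 0.191 and 0.152 CPM in Control libraries, with log2 fold change 3.38 ± 0.70 (edgeR adjusted p = 0.0341).

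Of 12 tested PI3K to AKT genes 1 rose and none fell, and without SOX17KO replicate 1 there were 2 higher and 1 lower. Of all tested genes 22.2% were called in that comparison, 11.9% higher and 10.3% lower, and 6.87% in the main fit. Akt1, which encodes a kinase downstream of PI3K, was at 511, 511 and 401 CPM in SOX17KO libraries, against 335, 323 and 337 CPM in Control libraries, with log2 fold change 0.51 (edgeR adjusted p = 0.0399). It lies in a stretch of chromosome 12 whose genes were higher together. Among the 20 neighbours of Akt1, 6 were called higher and 0 lower, against 3.67% higher over all tested genes, and their median was 0.43. Of the ERK feedback and target genes 1 of 19 rose and none fell, with 2 higher by DESeq2. The share of all tested genes called was 6.87% in the main fit and 10.7% by DESeq2. The ETS factor gene Etv5 was at 39.2, 27.1 and 30.8 CPM in SOX17KO libraries, against 20.05, 21.4 and 20.9 CPM in Control libraries, with log2 fold change 0.64 (edgeR adjusted p = 0.0463). Gab2, Ksr1, Akt1 and Etv5 each lost their call without any one Control library (highest edgeR adjusted p 0.138, 0.160, 0.201 and 0.198). Over all tested genes 1.6%, 1.56% and 1.64% were called without Control replicates 1, 2 and 3. Gab2, Ksr1 and Etv5 lost their call without SOX17KO replicate 3 as well (all genes 5.49%), and Akt1 without SOX17KO replicate 2 (all genes 6.16%). Ksr1 and Etv5 lost it with limma-voom (adjusted p = 0.0985 and 0.0562), and Etv5 with library totals only (edgeR adjusted p = 0.0686).

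**Figure D5:**
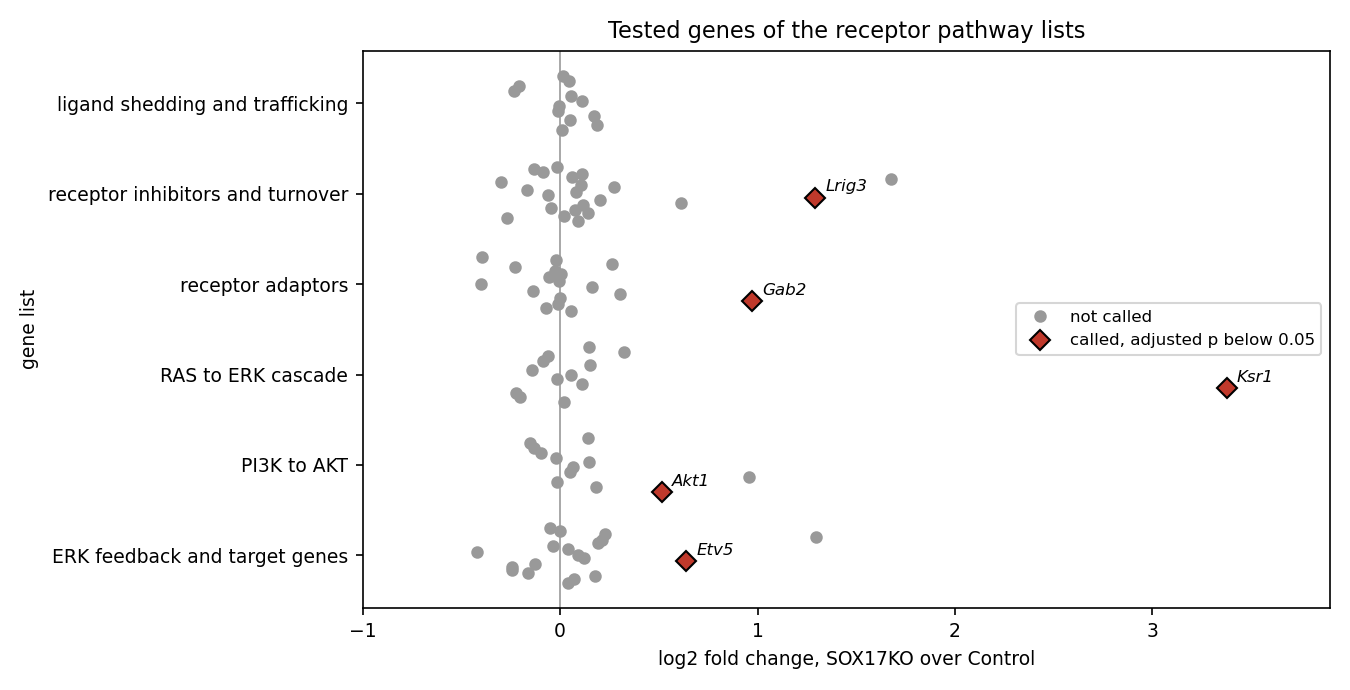
Log2 fold change, SOX17KO over Control, of each tested gene in 6 pathway lists (vertical spread only separates the points), with called genes as labelled red diamonds. Lrig3, Gab2, Ksr1, Akt1 and Etv5 lie to the right of 0.

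SOX17KO replicate 1 was also low for part of the ERK feedback and target genes. It was below 50% of the mean of SOX17KO replicates 2 and 3 for 6 of 19 of them, against 6.49% of all tested genes, and these 6, named after their values were seen, were Dusp5, Dusp6, Spry4, Spred3, Egr1 and Fos. Of the 6 libraries it was the lowest for 11 of the 19 and the highest for 2, Etv5 and Spry1. Over all tested genes it was the lowest for 30.8% and the highest for 30.1%. Spred3, at 1.68 CPM in that library, still lay above every Control library (0.951 to 1.38 CPM). Dusp6, an ERK phosphatase gene, was at 63.2, 150.4 and 139.6 CPM in SOX17KO libraries, against 134.7, 137.8 and 123.2 CPM in Control libraries. Errfi1, which encodes a direct inhibitor of EGFR kinase, was at 123.7, 260.2 and 360.2 CPM in SOX17KO libraries, against 271.6, 256.9 and 239.4 CPM in Control libraries. Neither gene was called (edgeR adjusted p = 0.833 and 0.964). Without SOX17KO replicate 1, 6 of the 19 were called higher and none lower, and of all 95 tested pathway genes 20 were called higher and 3 lower, 24.2% against 22.2% of all genes in that comparison.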

How the data were processed

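The authors deposited 1 table of expected counts per gene, the read estimates of RSEM. Bowtie, RSEM and mm9 are named, without versions, per the submitters' processing notes, and the sources used here give no other setting. Values were rounded, since 26.6% to 30.3% per library were fractional. Groups were compared with edgeR 4.0.16 under R 4.3.3: TMM factors, filterByExpr (minimum count 10, minimum total 15), dispersions and a quasi-likelihood fit with genotype as the coefficient, and Benjamini-Hochberg adjustment over 12137 genes. A call is an adjusted p below 0.05. The SE is the size of the log2 fold change over the root of the F statistic. CPM use TMM-adjusted library sizes. The sources used here name no molecular identifiers, and the count limits cover counting error only.

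Members, lists, motifs and tests were chosen with earlier results of these data known. All 9 members were named, with up to 4 called genes of each pathway list by smallest p, or, in a list with no call, the 2 of smallest p. Any further gene was picked with its values in view. The list symbols Cnih1 and Hras were read as Cnih and Hras1, Rhbdl4 was not analysed here, and some listed genes are not reported here and were left out of the list counts. Gene order came from RefSeq on GRCm38.p6, which matched 98.8% of tested genes; as this is a later build than mm9, the promoter stretches are the only coordinates given, on GRCm38.p6. Alternatives were RLE factors, unscaled library totals, dropping the low-count filter, requiring 1 CPM in 3 libraries, DESeq2 1.42.0, voom of limma 3.58.1, unrounded values, a replicate block, and leaving out each library. In a simulation of the SOX17KO and Control libraries over 12045 genes, recovery was 25.4% at a 1.5-fold change, 73.1% at 2-fold and 90.8% at 4-fold, and 11 of 136 calls were false. Each gene was drawn independently of the others, so no simulated library stood apart as SOX17KO replicate 1 did. The simulation therefore does not give the recovery or the share of false calls in these data. Figures were drawn with matplotlib 3.10.9.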

Additional observations from a re-analysis of the deposited data

How the results depend on the processing

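Epgn and Lrig3 were called in the same direction in each of 14 alternatives. The calls over all genes numbered 834, with 1439 by DESeq2, 326 with the replicate number as a block and 192 to 2708 when 1 library was left out, the highest without SOX17KO replicate 1. Calls among the 8 tested family members numbered 1, with 2 (Epgn and Erbb2) with library totals only, 2 with no low-count filter, 2 by DESeq2 and 1 to 6 with 1 library left out. Pathway calls numbered 5 of 95 tested, with 11 of 97 by DESeq2, 3 by limma-voom, 2 with the block and 1 to 23 with 1 library left out. Beside the family and pathway counts, 6.87% of all tested genes were called in the main fit and 10.7% by DESeq2. It was 6.48% with library totals only, 5.19% with no low-count filter and 1.56% to 22.2% with 1 library left out. Of 12137 tested genes 758 were called by limma-voom and 326 with the block. The log2 fold change ran from -0.39 to 0.25 for Areg and from -0.37 to 0.18 for Hbegf with 1 library left out, positive without SOX17KO replicate 1 alone. With 5 neighbours on each side the median was 0.157 around Areg, Ereg and Epgn, -0.201 around Btc and -0.247 around Tgfa. The cause of these differences was not tested. Same-numbered libraries had correlations of deviations from their group means of -0.186, -0.047 and -0.181, so the numbers were not taken as pairs, and no library correlated best with its own number. Under the block Gab2, Akt1 and Etv5 were not called. Ereg, Egf, the neuregulins and Erbb4 are limited by depth.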
